A study of Mus musculus with 8 samples.

Results

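Genes of protein tyrosine phosphatases and dual-specificity phosphatases were examined for binding of Bcl11b, the zinc finger protein on which commitment to the T cell lineage depends. Members were the protein-coding genes in the RefSeq annotation of mm10 whose symbols start with Ptpn, Ptpr or Dusp, without Ptprc, which gave 61 of 21900 protein-coding genes. An interval belonged to the set when the nearest protein-coding gene body to its midpoint was one of these genes and lay within 100 kb. This held for 350 of the 63098 intervals tested, each 201 bp long, and for 523 of the 93708 intervals counted before a filter on low counts. The rule itself used no measured value, but the set was proposed with earlier results of these data known. Ptprcap, which the symbols take in with 4 intervals, encodes a CD45-associated membrane protein and no phosphatase.

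DNA bound by Bcl11b in freshly isolated mouse thymocytes was precipitated with a rabbit antibody and sequenced (ChIP-seq). There were 3 libraries from Bcl11b +/+ animals (wild type) and 3 from Bcl11b +/N440K animals, which carry 1 allele with an amino acid exchange in Bcl11b. The comparison asks where binding differs between these genotypes. The labels give no age, sex or strain, and neither group carries a further allele or treatment in them. The sources used here do not say whether replicates are separate animals, and p-values therefore reflect the spread between libraries, which may be technical. They do not say either whether the antibody reads wild type and N440K protein equally. The 2 input libraries of wild type thymocytes were not analysed here, and no background is subtracted. Assignment to the nearest gene does not show which gene a site acts on, and ChIP signal measures binding, not expression.

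Protein tyrosine phosphatases remove phosphate from tyrosines and so oppose kinases such as Lck and Zap70, which carry the signal of the T cell receptor. Receptor-type members (Ptpr) span the membrane and non-receptor members (Ptpn) are inside the cell. Among the dual-specificity phosphatases (Dusp), the MAP kinase phosphatases remove both phosphates that activate ERK, JNK or p38, and several are themselves induced by the signal they end. In thymocytes the strength of receptor signalling sets whether a cell is positively selected or deleted.

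Tested Bcl11b intervals overlapped promoter windows of many of these genes, though not always the start itself. RefSeq promoter windows (GRCm38.p6, which shares coordinates with mm10; 250 bases before to 50 after the start) were matched for 49 members, which had 65 windows. A tested interval overlapped 33 of them (50.8%), in 29 genes, against 44.3% of the 21263 windows of all protein-coding genes. The 250 bases upstream of the start are shown for 3 members with strong signal near the start and with the letters TGACCA on either strand. They are also shown for 3 whose window holds the cyclic AMP response element TGACGTCA. Dusp2, Dusp1 and Dusp6, which lack TGACCA, had stronger signal near the start than Dusp5 and are not shown. All sequences shown are given in the direction of transcription. Ptpn22 lies at chr3:103860027-103860276 (plus strand), Ptpn7 at chr1:135132450-135132699 (plus), Dusp5 at chr19:53528895-53529144 (plus), Dusp8 at chr7:142095285-142095534 (minus), Ptpn11 at chr5:121191398-121191647 (minus) and Ptpru at chr4:131838279-131838528 (minus). Capitals mark matches on either strand to 8 short motifs. These were TGTGGT for RUNX factors, ACAGGAAG for ETS factors, CTTTGA for TCF factors, CAGCTG for E proteins, AGATAA for GATA factors, TGACCA as listed for BCL11 proteins, TGACGTCA for the response element (CRE), and TGANTCA for the AP-1 complex.
Ptpn22: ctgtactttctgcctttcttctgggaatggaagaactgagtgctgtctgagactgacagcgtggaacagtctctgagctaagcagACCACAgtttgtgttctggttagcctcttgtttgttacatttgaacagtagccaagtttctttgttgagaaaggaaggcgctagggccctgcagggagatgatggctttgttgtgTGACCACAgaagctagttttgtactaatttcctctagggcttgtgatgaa
Ptpn7: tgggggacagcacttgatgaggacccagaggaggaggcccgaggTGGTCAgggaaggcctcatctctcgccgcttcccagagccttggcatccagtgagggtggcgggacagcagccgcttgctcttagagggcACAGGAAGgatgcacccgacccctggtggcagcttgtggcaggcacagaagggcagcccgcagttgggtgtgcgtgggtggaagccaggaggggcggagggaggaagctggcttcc
Dusp5: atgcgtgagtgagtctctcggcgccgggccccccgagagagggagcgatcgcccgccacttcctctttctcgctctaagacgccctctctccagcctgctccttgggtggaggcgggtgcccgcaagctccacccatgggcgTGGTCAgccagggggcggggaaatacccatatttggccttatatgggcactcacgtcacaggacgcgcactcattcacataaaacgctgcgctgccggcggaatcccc
Dusp8: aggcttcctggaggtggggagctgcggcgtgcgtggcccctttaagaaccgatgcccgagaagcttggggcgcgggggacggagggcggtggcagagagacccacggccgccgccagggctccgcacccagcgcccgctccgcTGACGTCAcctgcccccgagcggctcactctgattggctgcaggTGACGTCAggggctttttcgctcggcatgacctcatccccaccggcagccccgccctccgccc
Ptpn11: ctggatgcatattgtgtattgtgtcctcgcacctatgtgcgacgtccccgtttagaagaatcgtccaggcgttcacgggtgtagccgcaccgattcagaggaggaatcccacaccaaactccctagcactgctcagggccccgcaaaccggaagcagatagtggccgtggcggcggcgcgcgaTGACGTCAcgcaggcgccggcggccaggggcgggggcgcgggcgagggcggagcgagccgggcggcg
Ptpru: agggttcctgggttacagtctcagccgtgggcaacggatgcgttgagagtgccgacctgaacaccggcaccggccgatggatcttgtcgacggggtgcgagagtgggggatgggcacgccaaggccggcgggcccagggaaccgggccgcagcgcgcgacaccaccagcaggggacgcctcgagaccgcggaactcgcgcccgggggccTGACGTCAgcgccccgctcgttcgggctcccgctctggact

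In the Ptpn22 sequence the interval covered bases 96 to 250 and had a mean of 62.1 CPM (the count scaled by library size). Its second RUNX match, at bases 203 to 208, overlaps the TGACCA at bases 201 to 206, and both lie under the interval. At Ptpn7 the interval (40.6 CPM) covered bases 129 to 250 with the ETS match at bases 135 to 142. The complement of TGACCA in Ptpn7, at bases 45 to 50, lay outside the interval. At Dusp5 the interval (38.4 CPM) covered bases 36 to 236 with the complement of TGACCA at bases 143 to 148. The intervals near the starts of Dusp2, Dusp1 and Dusp6 had 40.03, 39.97 and 38.47 CPM. Dusp8 holds TGACGTCA at bases 144 to 151 and 188 to 195, both under an interval of 14.5 CPM. In Ptpru the match at bases 210 to 217 lay under an interval of 12.5 CPM, whereas in Ptpn11 the match at bases 184 to 191 lay outside the interval, which ended at base 178.

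The CRE letters were in 5 of the 65 member windows (7.69%), against 2.23% of all windows. All 5 windows (Dusp1, Dusp8, Ptpn11, Ptprs and Ptpru) overlapped a tested interval, as did 348 of the 475 windows of all genes with these letters. In Dusp1, as in Ptpn11, the match itself lay outside the interval. The CRE letters were thus in 15.2% of the 33 bound member windows, against 3.69% of the 9421 bound windows of all genes. The other letters had shares nearer to those of all bound windows. TGACCA was in 15.2% against 10.3%, TGTGGT in 12.1% against 11.5%, CAGCTG in 12.1% against 13.8%, and ACAGGAAG in 3.03% against 3.58%. CTTTGA was in 3.03% against 10.9%, AGATAA in 3.03% against 5.17%, and TGANTCA in 0 of 33 against 3.76%. These shares are descriptions of letters, and in 33 windows 1 match is 3.03%.

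Counts in all intervals totalled 1787899 to 2661343 per library, and scaling factors ran from 0.990 to 1.012. The tested intervals near 11 markers of T cells and thymocytes numbered 138, reached 188 CPM and covered all 11 genes. Near markers of other cells there were 5 for B cells (none at Cd79a and Ms4a1), 21 for myeloid cells (none at Csf1r, Cd14 and Lyz2), 23 for natural killer cells (none at Ncr1 and Nkg7), 5 for erythroid cells (none at Hbb-bs) and 11 for thymic epithelium (none at Psmb11). The summed signal of the T cell list was 3349 to 3545 CPM in wild type against 3327 to 3387 CPM in +/N440K libraries. That of the myeloid list was 258.5 to 340.2 and 253.2 to 268.0 CPM, and that of the natural killer list 324.0 to 335.7 and 352.2 to 376.5 CPM. At an unadjusted edgeR p under 0.05 there were 14 of the 138 T cell intervals (10.1%, 2 higher and 12 lower). There were 6 of the 21 myeloid ones (28.6%, 1 higher and 5 lower) and 3 of the 23 natural killer ones (13.0%, all higher). Over all tested intervals the share was 12.7%. After adjustment 1 T cell interval was called lower and 1 natural killer interval higher, where 1.14% of all tested intervals were called. On counts summed per gene 1 of 2 myeloid genes was called lower, where 3.36% of all genes tested were called. The part of these other cells in the results was not tested. Fewer cells of a type and less binding per cell cannot be told apart in bulk libraries.

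Phosphatase genes had more intervals per gene than protein-coding genes in general. Counts were not scaled by gene length, and its part in this was not tested. Of the 61 genes, 47 (77.0%) had a tested interval, against 61.0% of all protein-coding genes, and the mean number per gene was 5.74 against 2.76. At least 10 intervals were found at 15 members (24.6%, against 6.69% of all genes). Ptpn14, a regulator of the Hippo pathway, had the most with 25, followed by Dusp5 with 21, the receptor phosphatase gene Ptprj (CD148) with 19, Ptprs with 18, and Dusp10, Ptpre and Ptprk with 17 each. Neighbouring intervals may be parts of the same bound region and cannot be taken as independent.

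**Figure D1:**
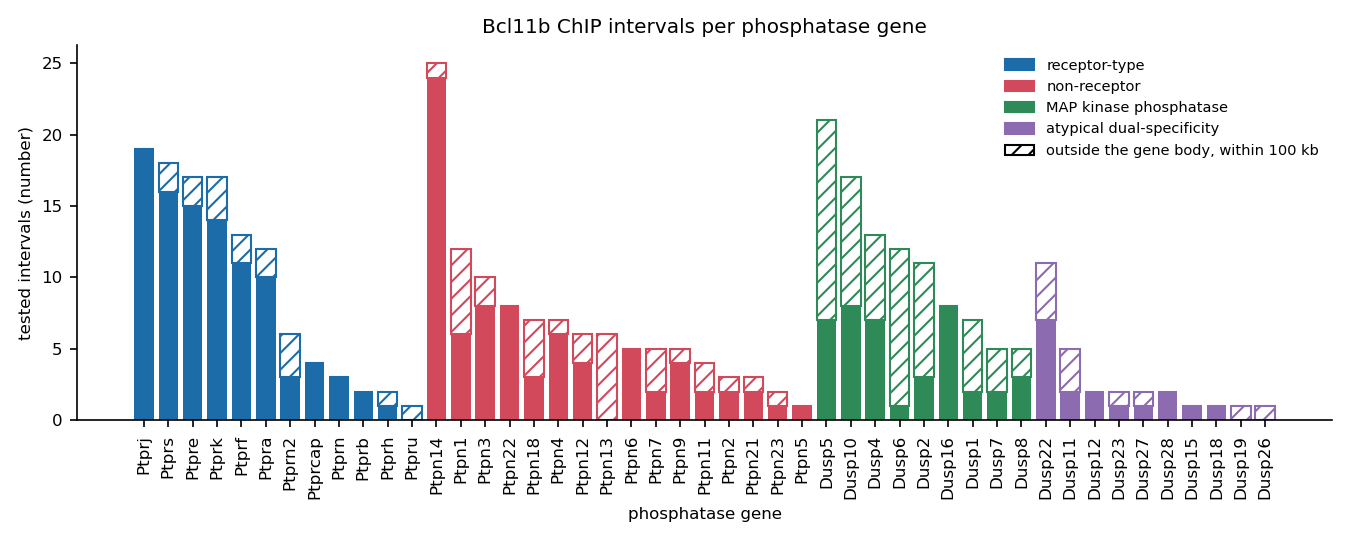
Number of tested Bcl11b ChIP intervals (y axis) at each of the 47 phosphatase genes with at least 1 (x axis), coloured by class; the filled part lies inside the gene body and the hatched part outside within 100 kb. Ptpn14 has 25 intervals, nearly all inside, whereas 11 of the 12 intervals of Dusp6 and 14 of the 21 of Dusp5 lie outside.

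No tested interval was found at 14 members. Dusp13, Dusp14, Dusp3, Dusp9, Ptprm, Ptpro, Ptprr and Ptprt had intervals only before the filter, and Dusp21, Ptpn20, Ptprd, Ptprg, Ptprq and Ptprz1 had none. Several of these are very long genes known from neurons: Ptprd spans 2271 kb, Ptprt 1139 kb, Ptprg 689 kb and Ptprm 688 kb. The members without a tested interval were mostly receptor-type genes, with 8 of 20, against 1 of 17 non-receptor, 1 of 10 MAP kinase phosphatase and 4 of 14 atypical dual-specificity genes. The 12 of 20 receptor-type genes with a tested interval are close to the 61.0% of all protein-coding genes that had one. The shares of the other classes were higher.

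Classes differed in where the signal lay, and also in gene length, whose part in this was not tested. MAP kinase phosphatase genes span from 2.2 kb (Dusp2) to 91.6 kb (Dusp16). Receptor-type genes with tested intervals span from 2.1 kb (Ptprcap) to 792.5 kb (Ptprn2). The 114 receptor-type intervals were inside gene bodies in 86.0% of cases, and the 109 non-receptor intervals in 71.6%. Of the 99 intervals at MAP kinase phosphatase genes 41.4% were inside, against 64.2% of the 60477 tested intervals with a gene within 100 kb, and 33.3% lay 10 to 100 kb outside, against 15.7% of those. These 99 were also the strongest, with a median of 17.3 CPM against 11.8 for all tested intervals and with 42.4% in the strongest quartile of all. The 28 intervals at atypical dual-specificity genes lay within 1 kb of a gene end in 53.6% of cases, against 32.3% of all. Over all 350 members the median was 13.4 CPM, and 25.7% of the 319 with a known start lay within 1 kb of it, against 37.3% of all intervals.

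Among the strongest intervals were sites far from any start, although others, such as the one at Ptpn22 described above, lay close to one. The median of the members was 16.3 CPM within 1 kb of a start and 11.7 CPM farther away. For all tested intervals these medians were 16.4 and 9.98 CPM. An interval 26.0 kb outside Dusp10, whose product acts on JNK and p38, had 92.9, 81.1 and 98.7 CPM in wild type against 104.1, 101.9 and 112.4 CPM in +/N440K libraries and ranked 66 of all 63098. The +/N440K libraries were all above the wild type ones, but the log2 fold change of 0.23 ± 0.11 (SE) did not pass (edgeR adjusted p = 0.351). A second one 42.6 kb outside Dusp10 had 79.3, 71.6 and 78.5 CPM against 76.4, 69.6 and 76.0 CPM, with libraries that overlapped. Inside Ptpn14, 102.9 kb from a start, the libraries had 101.0, 92.6 and 103.9 CPM against 90.3, 90.3 and 105.1 CPM, again overlapping. Ptprk, whose loss disturbs CD4 T cell development in rats, had one of 58.8 CPM inside the gene, 3.33 kb from the end of its body and 519.2 kb from a start, and Dusp22, whose product dephosphorylates Lck, one of 57.4 CPM inside it. Dusp6, an ERK phosphatase gene, had 59.3 CPM at 1.6 kb outside, and Dusp5, another one, 56.3 CPM at 64.3 kb outside. Apart from the first, these had log2 fold changes between -0.13 and 0.17, and none passed the test.

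Signal at most phosphatase genes did not differ detectably between the genotypes. EdgeR's quasi-likelihood test with Benjamini-Hochberg adjustment over all intervals called 4 of 350 member intervals (1.14%), 1 higher and 3 lower in +/N440K thymocytes, which equals the 1.14% called over all 63098. At an unadjusted p under 0.05 there were 44 (12.6%, 28 higher and 16 lower) against 12.7% of all. Wild type and +/N440K libraries did not overlap at 69 members (19.7%, 40 higher and 29 lower) against 17.3% of all. DESeq2 and limma voom called 0 members, where they called 0.0951% and 0.504% of all intervals. The median log2 fold change was -0.01 over the members and 0.00 over all, and 48.9% and 50.5% were positive. Scaling centres the log ratios, so a change of binding everywhere could not be measured.

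**Figure D2:**
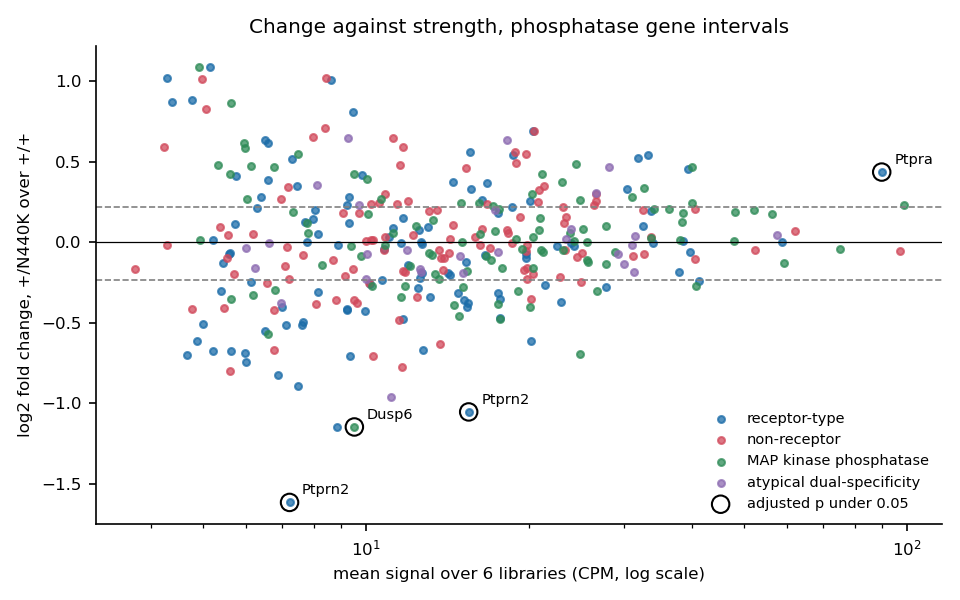
Log2 fold change of +/N440K over +/+ (y axis) against mean signal over the 6 libraries in CPM (x axis, log scale) for the 350 intervals at phosphatase genes, coloured by class; dashed lines are the quartiles of all 63098 tested intervals. The 4 ringed intervals passed the test, and those at Ptprn2 and Dusp6 are weaker than the one in Ptpra.

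The share of each library's counts that fell in member intervals was 0.587, 0.593 and 0.619% in wild type and 0.600, 0.596 and 0.617% in +/N440K libraries. The means were 0.600 ± 0.0168% and 0.604 ± 0.0115% (SD, n = 3). A two-sided exact permutation gave p = 0.6, or 0.8 adjusted over 6 shares, where 3 against 3 cannot go below 0.1. Shares of the 4 classes overlapped between the genotypes as well, with exact permutation p from 0.5 to 0.8.

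The clearest difference was at Ptprn2, which encodes phogrin, a receptor-type protein of secretory granules in neurons and endocrine cells with little or no phosphatase activity. All 6 tested intervals assigned to it had negative log2 fold changes. Their summed signal was 81.2, 64.6 and 70.8 CPM in wild type against 33.2, 34.8 and 45.8 CPM in +/N440K libraries. Each +/N440K library was below each wild type library. On counts summed per gene the signal fell 1.89-fold, with -0.92 ± 0.14 (SE) on the log2 scale (edgeR adjusted p = 0.00018 over 13349 genes). DESeq2 and limma voom gave adjusted p = 0.000376 and 0.000374. Of the 16 alternative fits, 1 lost the call, the test against a fold of 1.5 (edgeR adjusted p = 0.680). By p it ranked 33 of the genes tested and 27 of the 301 genes called lower. The 7 intervals of Ptprn2 that the filter removed summed to 27.9, 28.4 and 24.5 CPM in wild type against 21.0, 14.0 and 16.7 CPM in +/N440K libraries, without overlap.

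The signal at Ptprn2 lay in 3 places. Downstream of the gene, 61.9 kb outside at chromosome 12, 117340012 to 117340212, an interval had 10.5, 11.1 and 11.2 CPM in wild type against 2.77, 3.05 and 4.69 CPM in +/N440K libraries. It rested on 17, 27 and 26 reads against 5, 5 and 9. It fell 3.07-fold (log2 fold change -1.62 ± 0.37, SE; edgeR adjusted p = 0.0123), and the call was lost without +/N440K replicate 1 (0.0924), with DESeq2 (0.327) and with limma voom (0.0972). A neighbour at 117348656 had 8.67, 15.2 and 12.4 CPM against 3.88, 4.88 and 7.81 CPM, without overlap, and did not pass (edgeR adjusted p = 0.0658). Inside the gene, 174.4 kb from a start at 116660043 to 116660243, the libraries had 21.7, 16.1 and 25.3 CPM against 9.97, 7.32 and 12.5 CPM. This interval fell 2.08-fold (-1.05 ± 0.25, SE; edgeR adjusted p = 0.0182). Its call was lost without wild type replicate 1 (0.0545) or 3 (0.154), without +/N440K replicate 1 (0.0878) or 2 (0.0985), with DESeq2 (0.399) and with limma voom (0.0509). The interval at the start had 19.2, 9.47 and 5.58 CPM against 8.86, 9.15 and 8.85 CPM, and the genotypes overlapped there.

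Ptprn2 lies on chromosome 12, as Bcl11b does, 8.48 Mb beyond its end. Intervals of other genes around it were also low. From 116 to 117 Mb, the log2 fold changes of 26 intervals not assigned to Ptprn2 had their median at -0.27; 1 was called higher, in Esyt2, and 2 lower, near Wdr60. From 115 to 116 Mb, 25 intervals had a median of -0.86, with 8 called lower and 1 higher. From 114 to 115 Mb, 24 intervals had a median of -0.24, with 2 called lower and 1 higher. The medians were -0.01 from 113 to 114 Mb, -0.07 from 117 to 118 Mb and 0.14 from 118 to 119 Mb. Over the whole of chromosome 12, 2560 intervals had a median of -0.02, with 57 called lower and 23 higher. What these neighbours share with Ptprn2 was not tested, and a difference in binding and one in the DNA of this chromosome cannot be told apart without inputs.

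**Figure D3:**
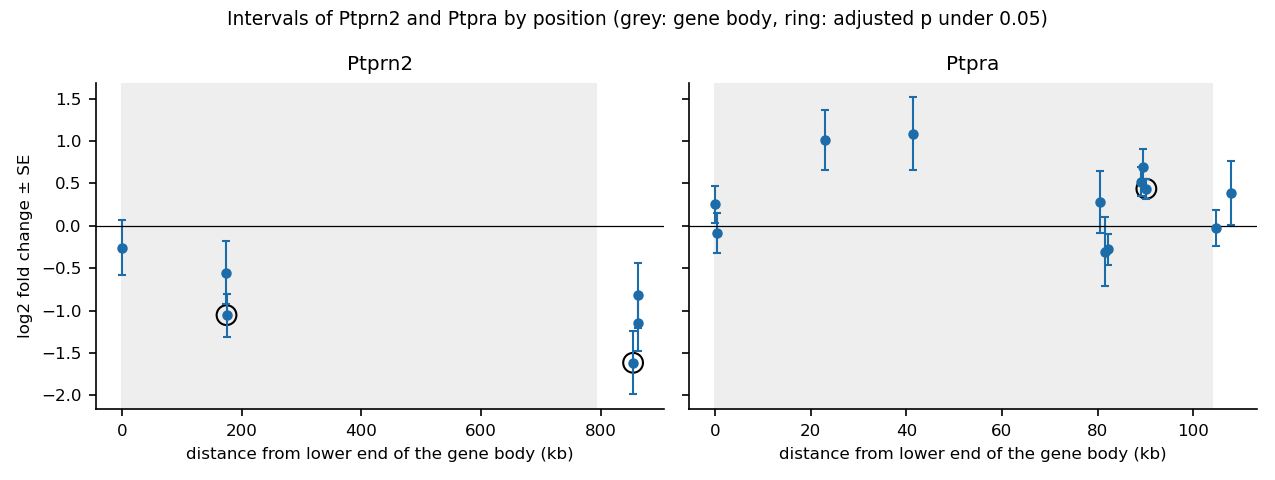
Log2 fold change of +/N440K over +/+ with its SE (y axis) at each tested interval of Ptprn2 and Ptpra, against the distance from the lower end of the gene body in kb (x axis); grey marks the gene body and rings mark an adjusted p under 0.05. All 6 intervals of Ptprn2 are below 0, and 8 of the 12 of Ptpra are above it.

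Ptpra, whose product activates Src family kinases such as Fyn by removing an inhibitory phosphate, gave the only member interval called higher. It lies inside the gene, 90.2 kb from a start, at chromosome 2, 130540386 to 130540586, and ranked 109 of all by signal. The libraries had 64.4, 79.9 and 83.7 CPM in wild type against 119.6, 85.4 and 105.7 CPM in +/N440K thymocytes, so replicate 2 of the latter stood just above the wild type range. It rose 1.35-fold (log2 fold change 0.44 ± 0.12, SE; edgeR adjusted p = 0.0431). The call was lost under 11 of 16 alternative fits, among them total counts as library size (0.0539) and loess offsets (0.147), with which no member was called higher. It was also lost with DESeq2 (0.520), with limma voom (0.0543), without wild type replicate 1 (0.197) or 2 (0.0517) and without +/N440K replicate 1 (0.335) or 3 (0.156). A pair of intervals within about 1 kb of it did not overlap between the genotypes either. The one at 130539678 had 14.9, 11.9 and 19.7 CPM against 23.8, 24.4 and 27.1 CPM, and the one at 130539293 had 20.4, 30.5 and 26.6 CPM against 34.3, 38.4 and 40.6 CPM (edgeR adjusted p = 0.0991 and 0.133).

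Summed over its 12 intervals, Ptpra had 200.7, 241.7 and 252.8 CPM in wild type against 315.1, 264.2 and 291.5 CPM in +/N440K libraries. The genotypes did not overlap. The sum rose 1.23-fold (0.30 ± 0.09, SE; edgeR adjusted p = 0.0466), with 8 intervals positive and 4 negative. Without wild type replicate 1 or 2, or without +/N440K replicate 1 or 3, the adjusted p was 0.276, 0.0723, 0.285 and 0.139, and it was 0.177 with DESeq2 and 0.0534 with limma voom.

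Ptpn13, a large cytoplasmic phosphatase known to bind the death receptor Fas, was the other gene whose sum rose. None of its 6 tested intervals lay in the gene body: they were 20.5 to 69.1 kb outside, and 3 of them lay side by side at 64.1 to 64.6 kb. The sum was 69.4, 60.5 and 69.5 CPM in wild type against 90.8, 78.1 and 97.9 CPM in +/N440K libraries, with all +/N440K libraries above. It rose 1.33-fold (0.42 ± 0.12, SE; edgeR adjusted p = 0.0460), and all 6 intervals had positive log2 fold changes although none was called alone. The adjusted p was 0.261 with DESeq2 and 0.04995 with limma voom, 0.0597 with loess offsets, and 0.0799, 0.230 and 0.0612 without wild type replicates 1, 2 and 3. Without +/N440K replicate 1 or 3 it was 0.149 and 0.242. In all, 3 of 47 members (6.38%) were called on summed counts, 2 higher and 1 lower, against 3.36% of the 13349 genes.

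**Figure D4:**
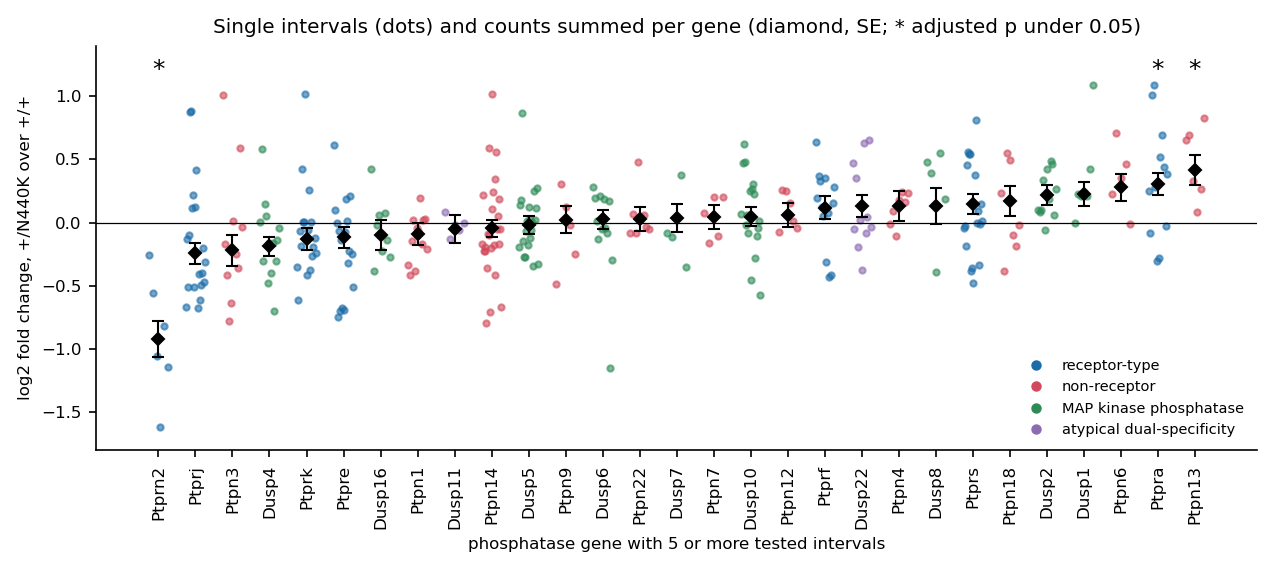
Log2 fold change of +/N440K over +/+ (y axis) for the phosphatase genes with at least 5 tested intervals (x axis), as dots for single intervals and as a diamond with its SE for counts summed per gene; asterisks mark an adjusted p under 0.05. Ptprn2 stands at -0.92, and Ptpra and Ptpn13 at 0.30 and 0.42, while the other genes lie between -0.24 and 0.28.

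Regulators of T cell receptor and cytokine signals all carried Bcl11b signal. The 12 genes listed for this role had 107 tested intervals, of which 1 was called, the one in Ptpra, and their median log2 fold change was -0.01. Over all tested intervals 1.14% were called. At an unadjusted edgeR p under 0.05 there were 15 of the 107 (14.0%), against 12.7% of all. At Ptpn22, which dampens Lck and Zap70 and whose start is shown above, the interval had 64.4, 51.5 and 67.0 CPM in wild type against 63.1, 55.5 and 71.3 CPM in +/N440K libraries. At the start of Ptpn7, a haematopoietic phosphatase of ERK and p38, they had 37.8, 42.8 and 45.1 CPM against 38.8, 38.4 and 40.6 CPM. In Ptpn2, which dephosphorylates JAK kinases and STAT factors, the strongest interval had 60.7, 55.6 and 43.8 CPM against 52.1, 57.4 and 44.8 CPM. The genotypes overlapped at all 3 of these intervals, with log2 fold changes of 0.07 ± 0.13, -0.10 ± 0.15 and -0.05 ± 0.14 (SE).

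Some of these genes leaned one way without passing. Ptpn6 (SHP-1, an inhibitor of receptor signalling) had summed signals of 78.1, 81.5 and 82.8 CPM in wild type against 96.4, 98.2 and 103.1 CPM in +/N440K libraries, without overlap (log2 fold change 0.28 ± 0.11, SE; edgeR adjusted p = 0.158). For Ptprj the sums were 217.5, 217.4 and 212.9 CPM against 178.9, 192.8 and 181.1 CPM, also without overlap (-0.24 ± 0.08, SE; edgeR adjusted p = 0.0953), and 13 of its 19 intervals were negative. Of 16 alternative fits, 3 called the Ptprj sum lower, namely loess offsets (edgeR adjusted p = 0.0477), intervals at or above the median CPM (0.0428) and the replicate block with loess offsets (0.0402). Ptpre, Ptpn3, Ptpn4, Ptpn11 and Ptpn12 had summed log2 fold changes from -0.22 to 0.13, and their genotypes overlapped. For Dusp22 the interval with the smallest p had 16.7, 13.2 and 13.3 CPM against 19.4, 24.4 and 22.4 CPM (edgeR adjusted p = 0.163).

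Among the MAP kinase phosphatases, 9 of 10 genes had intervals. Of their 99 intervals, 8 (8.08%) had an unadjusted edgeR p under 0.05, against 12.7% of all. Where 1.14% of all tested intervals were called after adjustment, 1 of the 99 was. It lies 17.6 kb outside Dusp6 at chromosome 10, 99284975 to 99285175, and is one of its weaker sites. The libraries had 11.2, 14.0 and 14.2 CPM in wild type against 4.98, 5.49 and 7.29 CPM in +/N440K thymocytes, without overlap. It fell 2.22-fold (-1.15 ± 0.31, SE; edgeR adjusted p = 0.0454), but the call was lost under 13 of 15 alternative fits. These include the omission of each library in turn (adjusted p 0.0562 to 0.186), the replicate block (0.0503), DESeq2 (0.612) and limma voom (0.108). The other 11 intervals of Dusp6 lay between -0.29 and 0.28, and its summed signal was 330.6 CPM in wild type against 340.1 CPM in +/N440K, a log2 fold change of 0.02 ± 0.08 (SE).

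**Figure D5:**
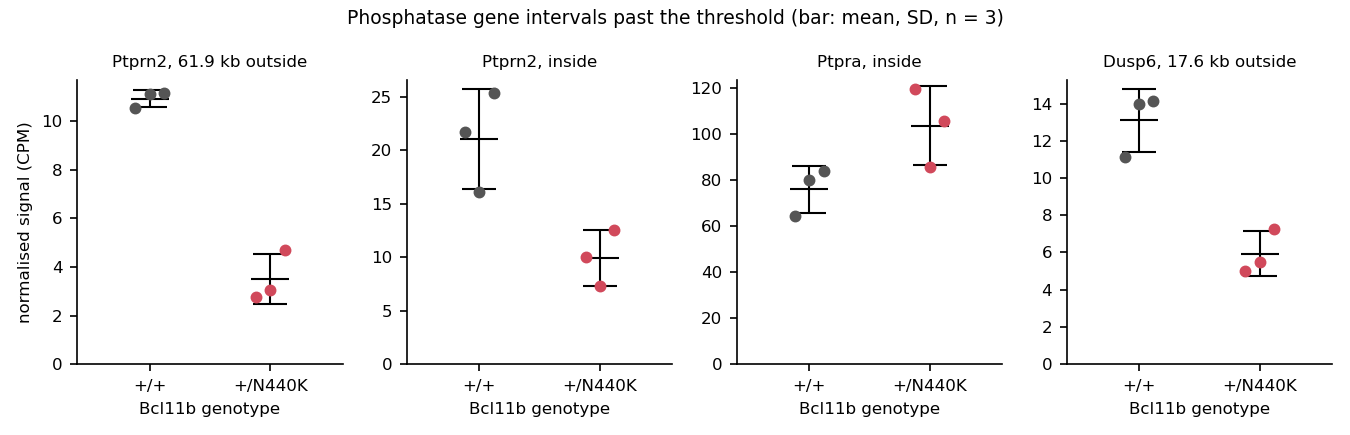
Normalised signal in CPM (y axis, from 0) of each library at the 4 intervals of phosphatase genes that passed the test, by Bcl11b genotype (x axis); points are libraries, bars the mean and SD of 3. At the intervals of Ptprn2 and Dusp6 the +/N440K libraries lie below the wild type ones, and at that of Ptpra they lie above, with 85.4 CPM in the lowest against 83.7 CPM in the highest wild type library.

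Dusp4, which acts on ERK and JNK in the nucleus, came close. Its interval inside the gene at chromosome 8, 34808886, had 28.5, 28.8 and 34.8 CPM in wild type against 18.3, 19.5 and 19.3 CPM in +/N440K libraries, with a clear gap between them. The log2 fold change was -0.70 ± 0.19 (SE; edgeR adjusted p = 0.0535), and 5 alternatives called it, with adjusted p of 0.0309 to 0.0448: total counts, loess offsets, only intervals at or above the median CPM, the replicate block, and the block with loess offsets. Dusp4 as a whole had 291.8, 303.4 and 321.1 CPM against 260.2, 287.4 and 268.1 CPM (edgeR adjusted p = 0.195).

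Dusp1 and Dusp2, both induced early after receptor stimulation, leaned towards higher signal. At Dusp2, 10 of 11 intervals were positive, and the one at the start had 29.1, 35.8 and 34.8 CPM against 40.4, 61.0 and 39.0 CPM (0.47 ± 0.16, SE; edgeR adjusted p = 0.160). The sums were 267.0, 285.3 and 298.3 CPM in wild type against 294.6, 359.4 and 350.3 CPM in +/N440K, which overlapped (edgeR adjusted p = 0.143). The replicate block called the Dusp2 sum higher (edgeR adjusted p = 0.0419), also with loess offsets (0.0321), and the other 14 alternative fits did not. At Dusp1, 6 of 7 intervals were positive, with sums of 119.0, 128.0 and 121.9 CPM against 143.4, 160.5 and 133.8 CPM, without overlap (edgeR adjusted p = 0.214). The sums of Dusp5, Dusp7, Dusp8, Dusp10 and Dusp16 overlapped between the genotypes, with log2 fold changes from -0.10 to 0.13.

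Adhesion and neuronal receptor phosphatases had 58 intervals at 6 of 11 genes, and the 2 called were those of Ptprn2, where 1.14% of all tested intervals were called. At an unadjusted edgeR p under 0.05 there were 11 (19.0%), against 12.7% of all. Ptprs, a receptor of proteoglycans, was split along its length. Inside the gene, 16.7 to 18.6 kb from a start, 4 neighbouring intervals had log2 fold changes of 0.46 to 0.56, of which the one at 56444996 on chromosome 17 had 27.3, 28.8 and 25.3 CPM in wild type against 34.3, 34.2 and 49.4 CPM in +/N440K libraries (edgeR adjusted p = 0.110). Of its 6 intervals within 1 kb of a start, 5 were negative, with a median of -0.35. Ptprf (LAR) and Ptprk had summed log2 fold changes of 0.12 ± 0.09 and -0.13 ± 0.09 (SE), and their genotypes overlapped.

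Intervals at receptor-type starts were more often lower than higher, a count made after the values were seen. Of the 21 intervals within 1 kb of a start, at 7 receptor-type genes, 16 (76.2%) had a negative log2 fold change and the median was -0.32, while intervals of the class farther away had -0.01. Among the 61 such intervals of the other members 45.9% were negative, and among all 17977 tested intervals near starts 45.1% were, with a median of 0.03. Ptprj gave 4 of the 16 and Ptprs 5, so these genes made up most of the count, while Ptpra (1 positive, 1 negative) and Ptpre (2 positive, 2 negative) were evenly split. None of the 21 passed the test, and the difference from other intervals was not tested.

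Of the remaining members, Dusp15 had 1 interval, inside the gene, with 14.9, 12.4 and 16.7 CPM in wild type against 7.75, 9.15 and 5.73 CPM in +/N440K libraries. The genotypes did not overlap there (log2 fold change -0.96 ± 0.29, SE; edgeR adjusted p = 0.0840), and the midpoint is equally near to Ttll9. In the fit over genes the edgeR adjusted p of Dusp15 was 0.0529, and it was 0.0496 with total counts as library size and 0.0303 with no filter on low counts. An interval inside Ptpn14, 69.9 kb from a start, had 6.20, 6.999 and 3.43 CPM against 11.6, 13.4 and 8.85 CPM (edgeR adjusted p = 0.127). The summed signal of Ptpn14 nevertheless overlapped between the genotypes, at 415.1, 391.5 and 414.2 CPM against 405.3, 383.2 and 403.9 CPM.

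Genes that work with the phosphatases showed a similar picture. For kinases of the MAP kinase cascade, 29 of 31 genes had 169 intervals. Of these, 15 (8.88%) had an unadjusted edgeR p under 0.05, against 12.7% of all. Where 1.14% of all tested intervals were called after adjustment, 1 of the 169 was. It lies inside Map3k1, an upstream kinase of JNK, with 7.44, 11.5 and 12.02 CPM in wild type against 2.22, 4.27 and 3.12 CPM in +/N440K libraries, and it fell 3.29-fold (-1.72 ± 0.39, SE; edgeR adjusted p = 0.0115; DESeq2 0.336, limma voom 0.104). Tyrosine kinases and adaptors of T cell and cytokine receptors (20 genes) had 294 intervals, and edgeR, DESeq2 and limma voom each called 0, while 35 (11.9%) had an unadjusted edgeR p under 0.05, near the 12.7% of all tested intervals. Csk, the kinase that places the inhibitory phosphate that Ptpra removes, had an interval with 13.6, 13.2 and 13.7 CPM against 22.7, 23.2 and 22.9 CPM (edgeR adjusted p = 0.0668), and Syk one with 20.4, 16.1 and 24.0 CPM against 13.8, 10.98 and 8.33 CPM (0.0649). The 154 intervals at 23 other cysteine-based phosphatase genes also gave 0 calls by the 3 tools, and 16 of them (10.4%) had an unadjusted edgeR p under 0.05, below that share.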

How the data were processed

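The submitters' processing notes list, without roles, MACS2, bedtools, SAMtools 1.9, Bowtie2 2.3.5, fastp 0.20.0 and edgeR 3.38.2, with mm10 as build. The sources used here do not say if peaks came from single or pooled libraries. The authors deposited read counts in 93708 intervals for 6 ChIP libraries, and CPM values for 63098 of them. Each CPM came back as a whole read for 100% of the values (tolerance 0.01).

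Counts were filtered with filterByExpr, which removed 30610 intervals, scaled with TMM and tested with edgeR 4.0.16 (quasi-likelihood, two-sided, Benjamini-Hochberg adjustment, threshold 0.05; genotype the only term). The SE is the log2 fold change divided by the root of the F value. Counts were also summed per gene and fitted over 13349 genes. Alternatives were DESeq2 1.42.0, limma 3.58.1 voom, other scalings and filters, a test against a fold of 1.5, a replicate block and leaving out each library. Fits were also run on simulated counts with planted changes, and no result given here rests on that run. Totals over tested intervals were 1609762 to 2400250.

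Intervals took the nearest RefSeq gene body within 100 kb. 3 of the 350 were tied between genes. Named intervals were those called, the 5 of smallest p on either side, the 8 strongest, and the strongest and smallest-p ones of each signalling and MAP kinase phosphatase gene; further ones were named after their values were seen. Members and lists were chosen with earlier results of these data known. Chi-square per degree of freedom between libraries showed no copies. Other software was R 4.3.3, matplotlib 3.10.9, scipy 1.17.1, numpy 2.4.6, pandas 2.3.3 and Python 3.11.15. The 2 inputs were not analysed here.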

Additional observations from a re-analysis of the deposited data

How the results depend on the processing

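The 5 member intervals of smallest p on either side and the 3 called sums kept their direction under every alternative, while counts of calls varied. These were picked by p, which favours a stable sign. Others with log2 fold changes near 0 changed sign under some alternatives, such as the strongest intervals of Dusp4 (7 of 16) and Ptprk (9 of 16). The 4 called member intervals became 0 with DESeq2, with limma voom, against a fold of 1.5 and at an adjusted p under 0.01, 2 among intervals at or above the median CPM, and 0 to 3 when 1 library was left out. Over all intervals, 720 calls became 60, 318, 49, 207 and 327 in these settings, and 289 to 502 without 1 library. The 3 called member genes became 1 with DESeq2, 5 with no filter on low counts, 0 against a fold of 1.5, 1 at an adjusted p under 0.01 and 1 to 3 without 1 library; the 448 called genes became 155, 674, 14 and 181, and 276 among intervals at or above the median CPM. The median log2 fold change of the members moved from -0.007 to -0.0414 among intervals at or above the median CPM and lay between -0.0174 and 0.0216 without 1 library. Of the 350 members, 90 lay within 1 kb of a gene end, with 0 called; 2 were called within 10 kb and 2 inside gene bodies. Fewer intervals or libraries enter several of these settings; for the tools the cause was not tested. Whether replicate numbers pair the libraries across genotypes could not be decided. Pairs sharing a number had correlations of -0.004, 0.028 and 0.058 between their deviations, while pairs with different numbers ran from -0.047 to 0.017. With few reads in many intervals, values this near 0 cannot show whether libraries of a number were handled as a batch. With the replicate block, 4 member intervals, 753 of all intervals and 4 member genes were called. Adding loess offsets to it gave 3, 674 and 5. Intervals with few reads limit what could be detected.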
